A study of Mus musculus with 105 samples.

Results

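Messages of iron homeostasis were followed in mouse CD4+ T cells through 8 genes: Tfrc, Slc11a2, Fth1, Ftl1, Aco1, Ireb2, Fbxl5 and Ncoa4. These genes were chosen by name, with earlier results of these data known. They are 8 of the 22322 mouse genes in the count table, and all 8 passed the filter on low counts over exons and over introns. The study set out to separate mRNA decay that depends on translation from decay that does not, by blocking transcription, translation or both in resting and activated T cells. The CD4+ T cells came from spleen and lymph nodes of 6-week-old C57BL/6J female mice, were purified by negative selection, and were either kept resting or activated with beads carrying CD3 and CD28 antibodies. How long activation had lasted before the inhibitors is not given in the sources used here. Total RNA was taken from equal numbers of cells at each time, ERCC spike-in RNAs (synthetic RNAs added to the sample) were sequenced with it, and each of 35 groups holds 3 libraries. There are 21 activated groups and 14 resting groups.

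The groups were named by state, time and inhibitor. Activated and resting cells were taken with triptolide (25 µM, which stops initiation by RNA polymerase II) at 0, 1 and 3 h, with cycloheximide (100 µg/ml, which blocks translation elongation) or harringtonine (2 µg/ml, which holds ribosomes at the start codon) alone at 1 and 3 h, with triptolide plus either of them at 1 and 3 h, and without inhibitor at 0, 1 and 3 h. Activated cells were also taken with DRB (65 µM, which blocks the kinase that releases RNA polymerase II into elongation) at 0, 1 and 3 h and with DRB plus either translation inhibitor at 1 and 3 h. How the libraries labelled 0 h with an inhibitor stand to its addition is not given in the sources used here. They are the 0 h reference for the changes and shares over time under triptolide or DRB, which carry that limit. The labels number the replicates 2, 3 and 4 and call them biological, and nothing in them ties a number to a mouse, so p-values measure the spread between these libraries.

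Cells take up transferrin-bound iron through transferrin receptor 1, the product of Tfrc, and Slc11a2 encodes DMT1, the transporter that carries iron out of the endosome into the cytosol. Surplus iron is stored in ferritin, a shell of heavy chains (Fth1) and light chains (Ftl1), and Ncoa4 is the cargo receptor that brings ferritin to the lysosome for release of its iron. When iron is short, the iron regulatory proteins IRP1 (Aco1) and IRP2 (Ireb2) bind a hairpin called the iron-responsive element (IRE). Bound in the 5′ UTR of ferritin mRNA they block its translation, and bound in the 3′ UTR of Tfrc mRNA they protect it from decay. Fbxl5 is the iron-sensing subunit of the ubiquitin ligase that removes IRP2. Activated T cells need iron to divide, and transferrin receptor is a classical surface marker of T cell activation.

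The elements that tie Tfrc to the ferritins are shown first, because they are the feature that these messages share in sequence. The pattern CNNNNNCAGTGN, with a stem of 5 paired bases on each side of the loop, was searched on the transcribed strand of GENCODE M21 transcripts on mm10. It was found once in the 5′ UTR of Fth1 (chr19:9982732-9982760, + strand), once in the 5′ UTR of Ftl1 (chr7:45459779-45459807, - strand) and 4 times in the 3′ UTR of Tfrc (+ strand; chr16:32631219-32631247, chr16:32631598-32631626, chr16:32631663-32631691 and chr16:32631710-32631738). Capitals mark the loop, CAGTG and the base after it.
Fth1 5′ UTR: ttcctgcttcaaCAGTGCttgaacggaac
Ftl1 5′ UTR: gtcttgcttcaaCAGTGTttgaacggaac
Tfrc 3′ UTR, the element nearest the stop codon: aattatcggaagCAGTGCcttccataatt
Tfrc 3′ UTR, the next: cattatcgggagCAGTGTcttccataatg
Tfrc 3′ UTR, the one after it: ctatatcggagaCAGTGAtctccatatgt
Tfrc 3′ UTR, the last: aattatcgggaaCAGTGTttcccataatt
The loop ended in C in Fth1 and in the first Tfrc element, in T in Ftl1 and in the second and the last Tfrc element, and in A in the remaining one. No match was found in transcripts of Slc11a2, Aco1, Ireb2, Fbxl5 or Ncoa4, which says only that these letters with this stem are not there. Elements of another form would be missed by this search, in Tfrc as in the other members. Of 21877 coding genes, 20 (0.091%) held the pattern in a 5′ UTR and 118 (0.539%) in a 3′ UTR, in UTRs of any length. These shares come from the longest coding transcript of each gene, a narrower search than that of all coding transcripts of the members. In the stem, G with T counted as paired.

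Library depth limited the precision of all values, and replicates of a group differed beyond counting noise. The libraries held 6300 to 6479221 reads over exons (median 2135827), and 660 to 388386 reads over ERCC RNAs (median 118443). The shallowest library by far was replicate 3 of resting cells at 1 h of triptolide, with 6300 exon reads, and the next was replicate 3 of untreated activated cells at 0 h, with 141028. Per library the median count of a member ran between 30.0 for Slc11a2 and 559 for Tfrc. Levels in CPM are counts per 1000000 exon counts of the genes that passed the filter. The library sizes in them were scaled with TMM factors, which set each library against its typical mRNA, so CPM already hold that scaling. Summed T cell markers (Cd3d, Cd3e, Cd3g, Cd4, Cd5, Cd28) were at 1450 to 2361 CPM in untreated activated libraries and 1833 to 2167 CPM in untreated resting libraries. Summed markers of CD8 T cells, B cells, macrophages, NK cells and red cells were at 0 to 14.2 CPM in activated and 0.25 to 11.98 CPM in resting libraries without inhibitor. Cd8a and Cd8b1 together were at up to 9.90 CPM in activated and 11.98 CPM in resting libraries.

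Per kilobase of exon, Ftl1, Tfrc and Fth1 had the highest means of the 8 messages in untreated activated cells at 0 h, and Ftl1 and Fth1 in untreated resting cells. Ftl1 was at 128 ± 32.0 CPM per kb in activated and 110.2 ± 27.7 CPM per kb in resting cells (SD, n = 3 each, as for the other values). Fth1 was at 47.9 ± 14.4 and 56.4 ± 5.68 CPM per kb in activated and resting cells, and Tfrc was at 75.4 ± 20.6 and 14.3 ± 3.80 CPM per kb. The others were at lower means. Ireb2 was at 11.6 ± 1.34 in activated and 12.3 ± 0.775 CPM per kb in resting cells, and Fbxl5 was at 9.10 ± 2.12 and 13.6 ± 1.91 CPM per kb. Aco1 was at 3.56 ± 3.16 and 6.36 ± 0.727, Ncoa4 at 2.38 ± 0.615 and 3.20 ± 0.892, and Slc11a2 at 2.27 ± 0.477 and 2.38 ± 0.287 CPM per kb in activated and resting cells. These lengths join all annotated exons of a gene, 6185 bases for Tfrc, 3469 for Fth1 and 9740 for Fbxl5. On them Tfrc was the second of the 8 by group mean in activated cells. In resting cells its mean was the third highest but did not differ from those of Fbxl5 and Ireb2 beyond the spread of its libraries. The longest coding transcripts hold 4890, 1494 and 4237 bases in the same order of genes, so the ranking depends on the length used.

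The 8 genes lie apart in mm10: Tfrc at chr16:32608920-32632794, Slc11a2 at chr15:100387898-100425072, Fth1 at chr19:9980598-9985098, Ftl1 at chr7:45457944-45459884, Aco1 at chr4:40143081-40198338, Ireb2 at chr9:54863789-54912530, Fbxl5 at chr5:43744615-43821638 and Ncoa4 at chr14:32159865-32179855. Reads of some of them cannot be told from those of copies. Of all 30-base windows of the transcript, 95.1% of Ftl1 also occurred in another gene (most often Ftl1-ps1), against 44.7% for Ncoa4 (most often Gm6768), 8.3% for Fth1, 0.8% for Slc11a2 and 0.3% for Fbxl5. No such window of Tfrc, Aco1 or Ireb2 was shared. Levels of Ftl1 and Ncoa4 are therefore uncertain. Exons of Slc11a2 overlap Gm5475 and those of Fbxl5 overlap Bst1 on the opposite strand, and whether strand was used in counting is not given in the sources used here. Over all libraries Gm5475 had 18 reads and Bst1 had 80.

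Activated cells held more Tfrc mRNA than resting cells, at 0 h and at 3 h without inhibitor, and it was the one member called higher at each time relative to typical mRNA. Levels are given for replicates 2, 3 and 4 in that order. At 0 h Tfrc was at 594, 466 and 339.9 CPM in activated cells and 116, 76.8 and 73.4 CPM in resting cells. Every activated library was above every resting one. The log2 change (± SE) was 2.40 ± 0.25, adjusted p = 5.42e-13 by edgeR's quasi-likelihood test on counts scaled with TMM factors, which set each library against its typical mRNA. Of all 10741 genes tested, 26.8% were called at this adjusted p threshold of 0.05, and 2 of the 8 members were.

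Fbxl5, which lowers IRP2 when iron is plentiful, was the other called member at 0 h, in the opposite direction. It was at 86.3, 110.3 and 69.4 CPM in activated and 154, 124 and 120.4 CPM in resting cells. The groups did not overlap, and the log2 change was -0.67 ± 0.22, adjusted p = 0.0169 by edgeR. Fbxl5 was not called with RLE factors, ERCC scaling, no filter on low counts or without replicate 2 or 4 (log2 change -0.66 to -0.44). The other 6 members had log2 changes between -0.41 and 0.16, with adjusted p between 0.194 and 0.988 by edgeR. The same counts were also scaled to ERCC counts, which sets them against the spike-in RNA instead of the other mRNAs; cell numbers were equal per the labels' protocols, and how much spike-in was added is not given in the sources used here. On that scale the log2 change was 2.59 ± 0.30 for Tfrc and -0.44 ± 0.25 for Fbxl5. In bulk RNA, fewer cells with a message and less of it per cell cannot be told apart.

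At 3 h Tfrc was at 1113, 867 and 886 CPM in activated and 61.2, 83.3 and 109 CPM in resting cells, which is a log2 change of 3.49 ± 0.25, adjusted p = 6.94e-21 by edgeR. It was the one member called, where 53.8% of all genes were. The other 7 had log2 changes between -0.30 and 0.35, with adjusted p between 0.139 and 0.893 by edgeR. Per ERCC count, where 50.7% of all genes were called and the median gene was 0.60 higher on the log2 scale (4358 higher and 1089 lower calls, against 2820 higher and 2958 lower with TMM factors), Tfrc rose by 4.17 ± 0.32, adjusted p = 5.94e-19, Aco1 by 0.99 ± 0.31, adjusted p = 0.0052 and Ncoa4 by 0.87 ± 0.30, adjusted p = 0.0106 in edgeR. Without replicate 2, 2 members were called with TMM factors.

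Within activated cells left untreated, Tfrc and Aco1 were higher at 3 h than at 0 h. Tfrc was at 1113, 867 and 886 CPM at 3 h and 594, 466 and 339.9 CPM at 0 h (log2 change 1.03 ± 0.23, adjusted p = 0.000845 by edgeR), with no overlap. Aco1, the message of IRP1, was at 53.6, 40.2 and 48.2 CPM at 3 h and 20.8, 0 and 27.2 CPM at 0 h (log2 change 1.14 ± 0.23, adjusted p = 0.000191 by edgeR). The value of 0 comes from the shallow replicate 3, and without the 2 shallowest libraries the log2 change of Aco1 was 1.01. Of all genes, 13.6% were called. Tfrc was not called without replicate 4 (log2 change 0.87). Aco1 was not called without replicate 2 (log2 change 0.96).

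Resting cells left untreated showed no called member between 3 h and 0 h, where 6.39% of all genes were called. By edgeR none of the 8 had an unadjusted p under 0.05, and DESeq2 called 0. Tfrc was at 61.2, 83.3 and 109 CPM at 3 h and 116, 76.8 and 73.4 CPM at 0 h, with overlapping groups (log2 change -0.05 ± 0.24, adjusted p = 0.964 by edgeR). The other members had log2 changes between -0.54 and 0.48, with adjusted p between 0.257 and 0.982. Fth1 was lower in each library at 3 h (126, 138 and 139 CPM) than at 0 h (177, 193 and 216 CPM) without passing the test.

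Across all 35 groups, Tfrc separated the states completely. Group means of the 21 activated groups ran between 362 and 956 CPM (median 466), and those of the 14 resting groups between 36.5 and 93.3 CPM (median 51.2). The highest were untreated activated cells at 3 h (956 ± 137 CPM), then DRB at 3 h (809.7 ± 120.4 CPM) and triptolide at 3 h (782 ± 207 CPM) in activated cells. The lowest of the activated groups was DRB plus cycloheximide at 1 h (362 ± 29.8 CPM), and the highest resting group was triptolide at 0 h (93.3 ± 25.1 CPM). Of the 34 steps between neighbours in that order, 3 were wider than the larger SD of the pair. These were the step below untreated activated cells at 3 h, the step between the states, and the step between resting untreated cells at 1 h (71.4 ± 7.19 CPM) and resting triptolide at 3 h (57.0 ± 9.23 CPM). The other 31 neighbours did not differ beyond their spread. The lowest resting group, triptolide at 1 h, includes the shallow library without a Tfrc read.

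**Figure D1:**
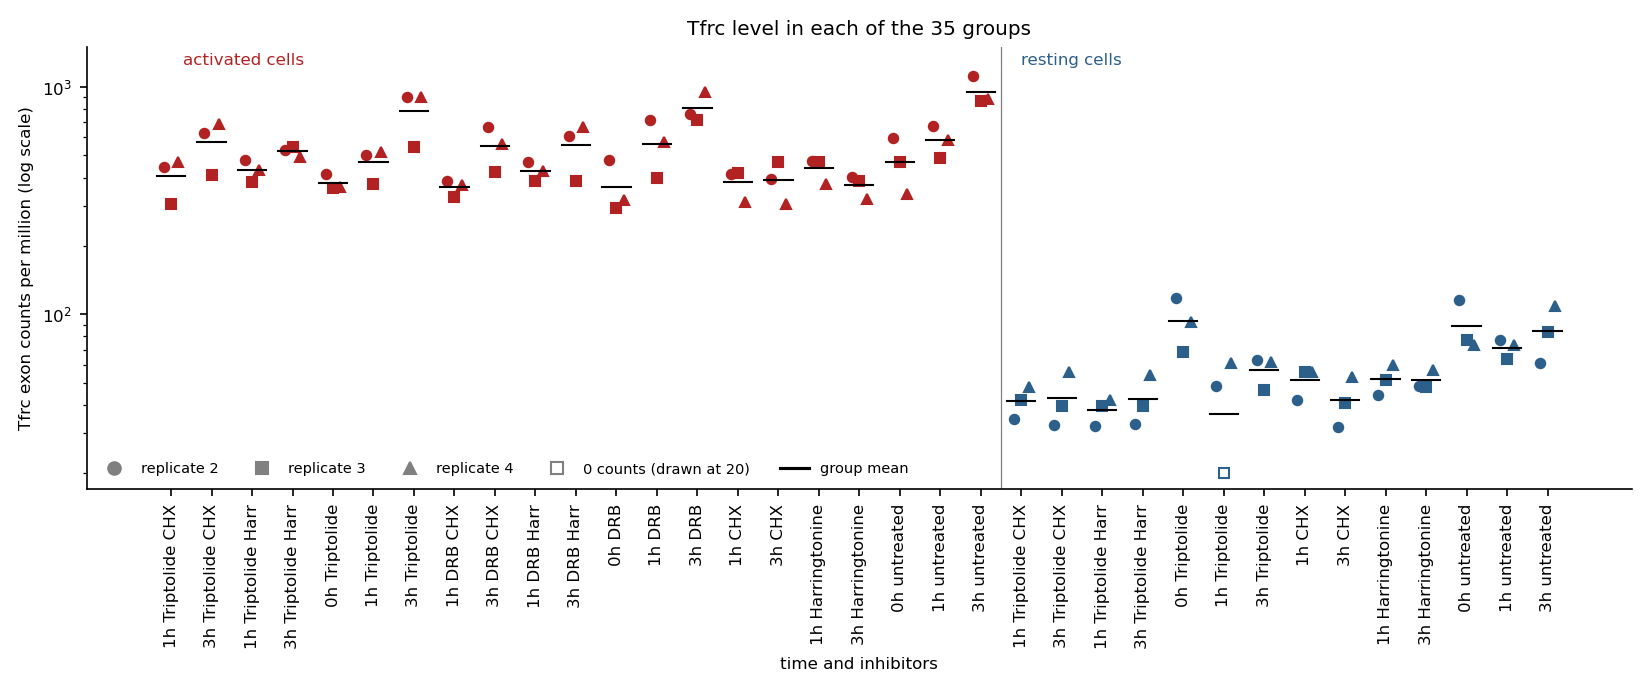
Tfrc exon CPM (log axis) in each library of the 35 groups, activated groups left and resting groups right, with a bar at the group mean; libraries at 0 are open points at 20. Every activated group mean lies at or above 361.5 CPM and every resting group mean at or below 93.35 CPM.

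The other members spread less. The highest group mean was 26.2 times the lowest for Tfrc, 6.47 times for Fth1, 6.04 times for Ftl1, 4.13 times for Ireb2 and 3.44 times for Fbxl5. It was 2.96 times for Aco1, 2.45 times for Slc11a2 and 2.17 times for Ncoa4. By group mean both ferritins peaked at 3 h of triptolide. Fth1 was highest there in activated cells (523 ± 177 CPM) and Ftl1 in resting cells (504 ± 75.9 CPM). The next groups were resting triptolide at 3 h for Fth1 (519.6 ± 85.3 CPM) and activated DRB at 3 h for Ftl1 (499.5 ± 143 CPM). Their lowest means were at 3 h of harringtonine, in activated cells for Fth1 (80.9 ± 24.2 CPM) and in resting cells for Ftl1 (83.3 ± 6.52 CPM). The next lowest were activated cells with cycloheximide at 3 h, for Fth1 (101.5 ± 28.3 CPM) and Ftl1 (88.1 ± 16.4 CPM). None of these neighbours differed beyond their spread. Over the 35 group means of log2 CPM, Fth1 and Ftl1 had a Pearson r of 0.939, given as a description, since both genes were measured in the same libraries and Ftl1 shares reads with copies.

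The genes whose 35 group means of log2 CPM were most like those of Tfrc, among 9161 ranked genes, were Phf6 (Pearson r 0.9757), Btla (0.9736), Slc38a1 (0.9666), Dkc1 (0.9656) and Map2k3 (0.9614). Phf6 encodes a nuclear PHD-finger protein, Btla an inhibitory lymphocyte receptor, Slc38a1 a glutamine transporter, Dkc1 the pseudouridine synthase dyskerin, and Map2k3 a kinase upstream of p38. Among the other members, the r with Tfrc was highest for Ncoa4 (0.546) and lowest for Fbxl5 (-0.605). All these genes were measured in the same libraries, and for Tfrc the activated and resting groups form separate clusters.

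With transcription blocked, the 8 messages split into those that rose relative to the typical mRNA and those that did not. Relative to typical mRNA, Tfrc, Fth1 and Ftl1 were higher after 3 h of triptolide or DRB in activated cells, and Fth1 and Ftl1 were higher after 3 h of triptolide in resting cells. Per ERCC count none of these was called higher than at 0 h. Each log2 change was below 0 on that scale, but of these only Tfrc under triptolide was called lower. Those of the ferritins lay between -0.41 and -0.04, uncalled, and Tfrc under DRB was not called. The median gene was at a log2 change of -1.68, -1.54 and -1.77 in the 3 treatments. Over all genes, 2307 higher and 2811 lower were called under triptolide in activated cells with TMM factors and 199 higher and 8351 lower per ERCC count; under DRB 1928 higher and 2347 lower and 151 higher and 8399 lower; in resting cells 2852 higher and 3252 lower and 207 higher and 8108 lower. Fbxl5 was lower on either scale in activated cells. In resting cells Tfrc and Ncoa4 were lower on either scale.

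A few transcripts of other cells were also higher at 3 h relative to typical mRNA. Their levels per ERCC count are not reported here, so this is stated for TMM factors alone. The summed level of 6 macrophage and monocyte markers was at 10.4 to 22.6 CPM at 3 h and 0.97 to 3.24 CPM at 0 h of triptolide in activated cells, 5.50 to 10.6 and 0.93 to 3.12 CPM with DRB, and 4.61 to 8.88 and 0.33 to 4.45 CPM with triptolide in resting cells. These sums rest on few reads. Adgre1 had 14, 10 and 12 reads at 3 h and 1, 0 and 1 at 0 h of triptolide in activated cells, and 3, 5 and 5 and 0, 1 and 0 in resting cells, and was called higher in both (adjusted p = 1.86e-05 and 0.000249 by edgeR). Cd68, the other one of the 6 that passed the filter on low counts, was called with DRB (log2 change 2.37 ± 0.83, adjusted p = 0.0168 by edgeR). At 3 h Cd14 was at 0 in all 3 treatments, Lyz2 also with DRB, and Csf1r and Fcgr1 also in resting cells. Summed B cell markers were at 6.96 to 21.9 CPM at 3 h and 1.45 to 13.6 CPM at 0 h of triptolide in activated cells, and Cd79b was called there (log2 change 2.47 ± 0.93, adjusted p = 0.0221 by edgeR). With DRB the B cell sums were at 3.8 to 20.4 and 1.56 to 15.2 CPM, and with triptolide in resting cells at 7.9 to 18.3 and 4.26 to 8.1 CPM. Summed red cell markers were at 1.74 to 34.5 CPM at 3 h and 0.48 to 11.4 CPM at 0 h of triptolide in activated cells. They were at 1.27 to 35.2 and 0.76 to 15.9 CPM with DRB, and 1.97 to 19.9 and 1.67 to 6.07 CPM with triptolide in resting cells. All these B cell and red cell ranges overlap. The part of such transcripts in the ferritin values was not tested.

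In activated cells under triptolide, Tfrc was at 900.1, 543 and 903 CPM at 3 h and 416, 361 and 362 CPM at 0 h. The lowest library at 3 h was above the highest at 0 h, and the log2 change was 1.05 ± 0.23, adjusted p = 0.000104 by edgeR. Per 1000000 ERCC counts Tfrc was at 6062, 6829 and 4983 at 3 h and 12300, 7955 and 7229 at 0 h. On that scale it stood at 65.0% of the 0 h mean, and its log2 change was -0.62 ± 0.28, adjusted p = 0.0392 by edgeR, where 79.6% of all genes were called.

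The ferritin messages rose relative to typical mRNA and were not called per ERCC count after 3 h of triptolide. Fth1 was at 582, 663 and 324 CPM at 3 h and 272, 177 and 147 CPM at 0 h, and Ftl1 at 314, 574 and 539.9 CPM at 3 h and 126, 268 and 202 CPM at 0 h. Neither pair of groups overlapped. The log2 changes were 1.39 ± 0.30, adjusted p = 7.93e-05 for Fth1 and 1.26 ± 0.34, adjusted p = 0.00152 for Ftl1 by edgeR. Per ERCC count, Fth1 was at 94.3% and Ftl1 at 90.3% of the 0 h mean (log2 changes -0.10 ± 0.36 and -0.17 ± 0.39, neither called). These shares are loose. Per 1000000 ERCC counts Fth1 was at 3923, 8339 and 1786 at 3 h and 8061, 3898 and 2935 at 0 h, with overlapping groups, and its share of the 0 h mean was 148% without replicate 2 and 51.9% without replicate 3. For Ftl1 the share was 65.8% without replicate 3 and 103% without replicate 2.

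Fbxl5 went the other way. It was at 38.6, 45.2 and 32.3 CPM at 3 h and 86.8, 90.0 and 89.4 CPM at 0 h, with every library at 3 h lower (log2 change -1.22 ± 0.23, adjusted p = 9.62e-06 by edgeR). Per ERCC count it was at 15.9% of the 0 h mean, and 10.1% without replicate 3. Ireb2 was at 16.3%, Slc11a2 at 20.4%, Aco1 at 27.8% and Ncoa4 at 29.8%, and all 5 fell per ERCC count by edgeR, as did Tfrc. With TMM factors 4 of 8 members were called, where 47.6% of all genes were, and the uncalled 4 had log2 changes between -0.87 and 0.01, with adjusted p between 0.0664 and 0.982 by edgeR. Ftl1 was not called without replicate 4 (log2 change 1.18).

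DRB, which stops transcription at another step, left Tfrc, Fth1 and Ftl1 higher and Fbxl5 lower in activated cells with TMM factors. Tfrc was at 763, 719.5 and 946 CPM at 3 h and 478, 294 and 318 CPM at 0 h (log2 change 1.15 ± 0.23, adjusted p = 3.35e-05 by edgeR). Fth1 had a log2 change of 1.23 ± 0.30, adjusted p = 0.00051, Ftl1 of 1.23 ± 0.34, adjusted p = 0.00222 and Fbxl5 of -0.86 ± 0.22, adjusted p = 0.0013 by edgeR. In all 4 the groups did not overlap, and 39.8% of all genes were called. Ftl1 was not called with library size alone or without replicate 4 (log2 change 0.78 to 1.27). Fbxl5 was not called with a fit of only the compared libraries or without replicate 4 (log2 change -0.81 to -0.72).

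Per ERCC count under DRB, where 79.6% of all genes were called, Tfrc was at 76.9% of its 0 h mean (log2 change -0.38 ± 0.28, adjusted p = 0.206 by edgeR). Fth1 was at 83.2% and Ftl1 at 75.0%, neither called. Slc11a2 was at 25.2% (14.1% without replicate 2 and 39.5% without replicate 4), Aco1 at 27.2%, Ireb2 at 32.7%, Fbxl5 at 18.3% and Ncoa4 at 42.3%, and these 5 fell. The exact permutation test of 3 against 3 libraries cannot give a p below 0.1.

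In resting cells under triptolide the ferritins again rose relative to the typical mRNA, while Tfrc fell. Tfrc was at 63.2, 46.4 and 61.5 CPM at 3 h and 119, 68.4 and 93.0 CPM at 0 h, with every library at 3 h lower (log2 change -0.72 ± 0.25, adjusted p = 0.0129 by edgeR). Ncoa4 was at 9.97, 14.8 and 19.2 CPM at 3 h and 38.9, 21.6 and 29.1 CPM at 0 h (log2 change -0.95 ± 0.28, adjusted p = 0.0024 by edgeR). Fth1 was at 429, 598 and 532 CPM at 3 h and 167, 173 and 192 CPM at 0 h, with a log2 change of 1.55 ± 0.30, adjusted p = 7.95e-06, and Ftl1 had one of 1.63 ± 0.34, adjusted p = 3.55e-05, by edgeR. All 4 pairs of groups were apart, and 56.8% of all genes were called.

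Per ERCC count, where 77.4% of all genes were called, resting Tfrc was at 18.7% of its 0 h mean after 3 h of triptolide and Ncoa4 at 14.2%. Fbxl5 was at 22.2%, Aco1 at 24.7%, Ireb2 at 25.0% and Slc11a2 at 42.4%. These 6 fell by edgeR. Fth1 was at 88.8% and Ftl1 at 97.5%, neither called. Tfrc was not called without replicate 2 (log2 change -0.59). Ncoa4 was not called without replicate 2 (log2 change -0.57). With the replicate block Fbxl5 (-0.45, adjusted p = 0.0121) was called too.

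**Figure D2:**
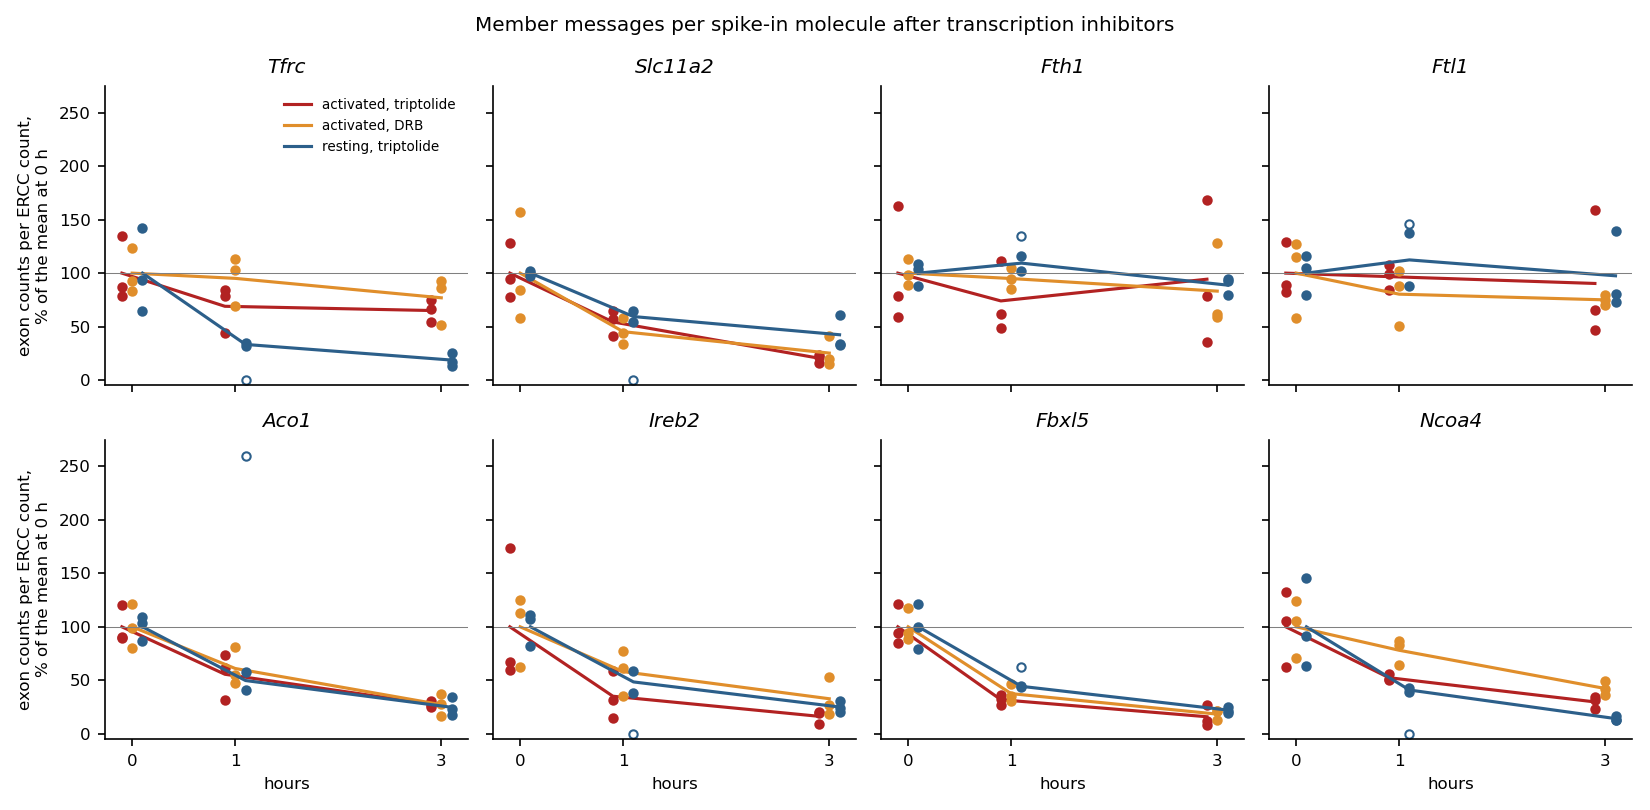
Exon counts per ERCC count, as percent of the mean at 0 h (y axis), against time in h for each of the 8 messages, in activated cells with triptolide, activated cells with DRB and resting cells with triptolide; points are libraries and lines join means, which leave out the open point, the shallowest library (replicate 3 of resting cells at 1 h). Mean shares of Fth1 and Ftl1 at 3 h are 75.0 to 97.5% in the 3 treatments, where that of Fth1 in activated cells with triptolide (94.3%) is 51.9% without replicate 3 and 148% without replicate 2, and Tfrc is at 65.0 and 76.9% in activated cells and 18.7% in resting cells.

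The change in Tfrc over 3 h of triptolide differed between the states. Activated minus resting, the difference in log2 change was 1.76 ± 0.34, adjusted p = 0.000439 by edgeR with TMM factors and 1.83 ± 0.42, adjusted p = 0.00641 per ERCC count. It was called under every alternative tried, with values between 1.57 and 1.96. Of all genes, 6.47% had a called difference with TMM factors and 1.95% per ERCC count, and Tfrc was the one member that had without the replicate block. The other 7 members had differences between -0.79 and 0.96 with TMM factors, none called, and with the replicate block Fbxl5 (-0.75, adjusted p = 0.0291) and Ncoa4 (0.99, adjusted p = 0.0464) were called too.

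At 1 h of inhibitor few members were called relative to typical mRNA. Per ERCC count, 5 of 8 members were called lower by edgeR with triptolide in activated cells, where 45.5% of all genes were called. With DRB 2 were called lower per ERCC count, where 37.3% of all genes were called. Fbxl5 was at 31.9% of its 0 h mean per ERCC count with triptolide and at 37.5% with DRB. The calls that follow are with TMM factors. In activated cells with triptolide, Fbxl5 was at 36.6, 65.0 and 54.7 CPM at 1 h and 86.8, 90.0 and 89.4 CPM at 0 h, with every library at 1 h lower (log2 change -0.78 ± 0.22, adjusted p = 0.00479 by edgeR, 24.2% of genes called). Fbxl5 was not called with a fit of only the compared libraries or without replicate 2 or 4 (log2 change -0.82 to -0.61). In the fit with the replicate block, Fth1 (0.46, adjusted p = 0.0369), Ftl1 (0.80, adjusted p = 4.89e-05) and Ireb2 (-0.65, adjusted p = 0.0187) were called too. With DRB, Fbxl5 had a log2 change of -0.70 ± 0.22, adjusted p = 0.017 and Tfrc of 0.63 ± 0.23, adjusted p = 0.0454 by edgeR, with 15.9% of genes called. Tfrc was at 718, 396 and 573 CPM at 1 h and 478, 294 and 318 CPM at 0 h, and the groups overlapped. Tfrc was not called with RLE factors, library size alone, ERCC scaling, no filter on low counts, DESeq2, a fit of only the compared libraries or without replicate 2, 3 or 4 (log2 change -0.07 to 0.72). Fbxl5 was not called with counts over coding sequence, a fit of only the compared libraries or without replicate 2, 3 or 4 (log2 change -0.76 to -0.63). With the block, Fth1 (0.61, adjusted p = 0.00619) and Ftl1 (0.41, adjusted p = 0.0475) were added. In resting cells at 1 h the triptolide libraries of replicates 2 and 4 had Tfrc at 48.6 and 61.0 CPM, and the shallow replicate 3 had no Tfrc read.

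**Figure D3:**
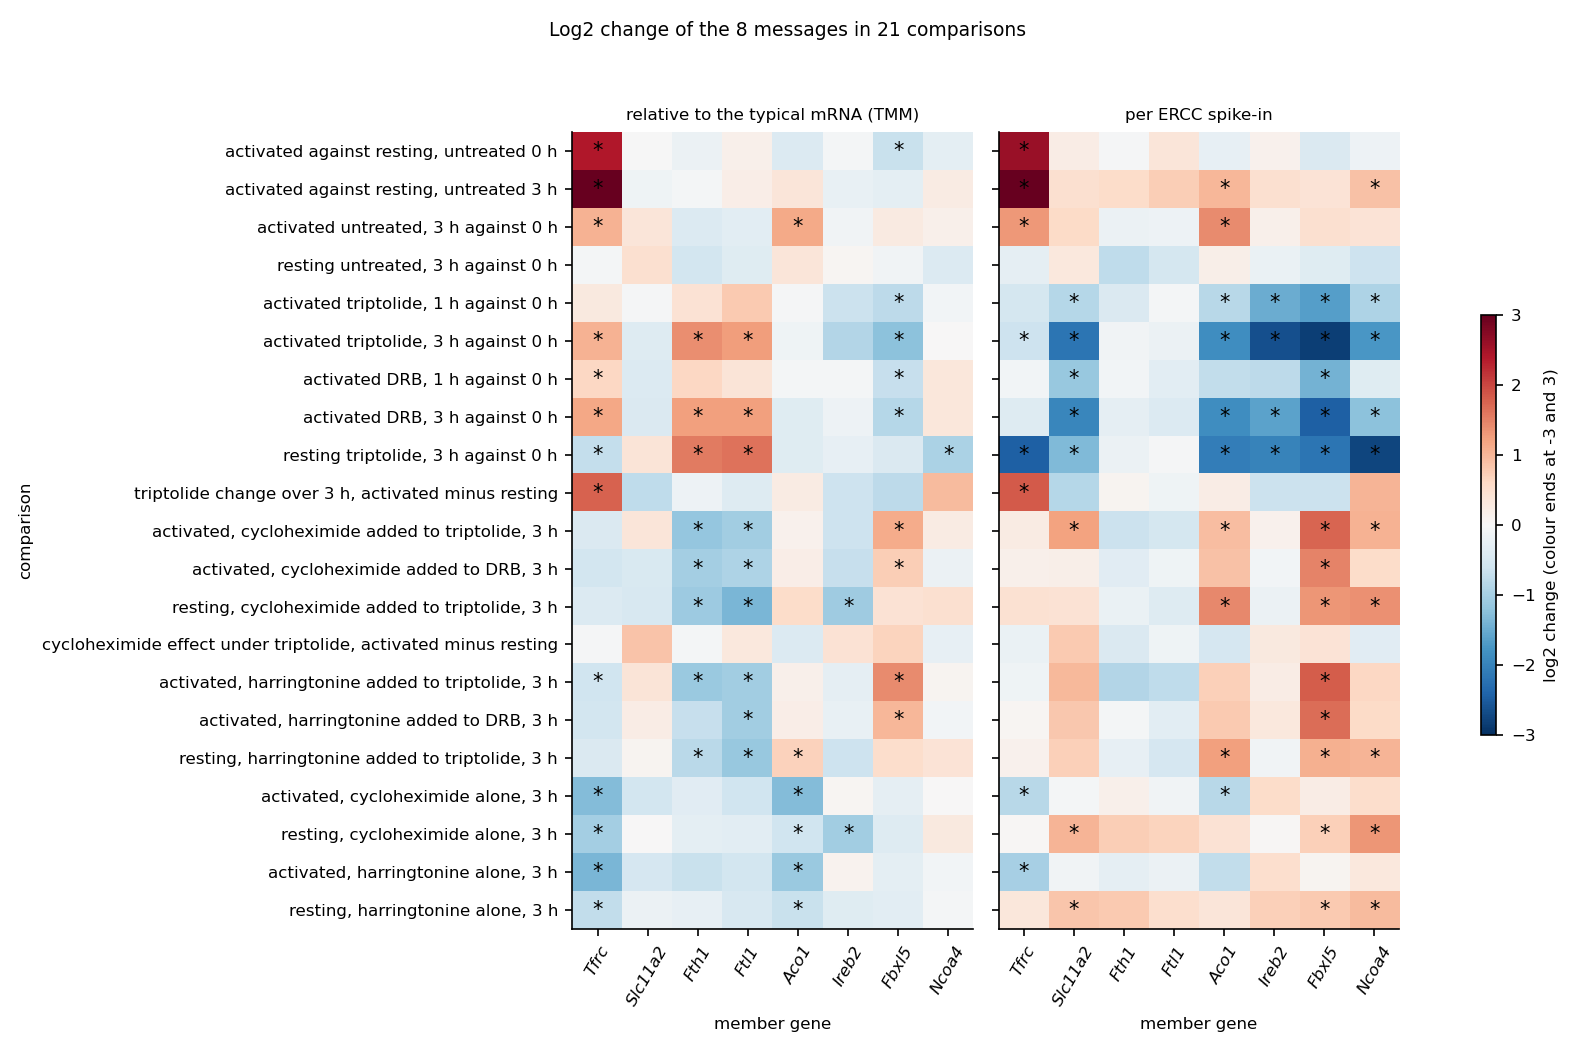
Log2 changes of the 8 messages (columns) in the 21 comparisons (rows), with TMM factors on the left and per ERCC count on the right; an asterisk marks an adjusted p under 0.05 in edgeR. After 3 h of transcription inhibitor Fth1 and Ftl1 are positive on the left and between -0.41 and -0.04 on the right, uncalled, and Tfrc is positive on the left and negative on the right in activated cells.

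Adding a translation inhibitor to the transcription inhibitor moved the ferritins and Fbxl5 in opposite directions relative to typical mRNA. At 3 h, Ftl1 was lower with cycloheximide or harringtonine in all 6 such comparisons and Fth1 in 5 of them, while Fbxl5 was higher in the 4 made in activated cells. Per ERCC count the ferritins were not called in any of the 6, with log2 changes between -0.87 and -0.05, while the median gene was 0.38 to 0.86 higher. For cycloheximide added to triptolide in activated cells, 1697 higher and 1239 lower genes were called with TMM factors and 3714 higher and 38 lower per ERCC count. Fbxl5 rose per ERCC count in all 6 by edgeR. The summed macrophage markers ran lower at both ends of their range beside the ferritins in all 6: 6.36 to 8.13 CPM with cycloheximide added, 4.63 to 13.5 CPM with harringtonine added and 10.4 to 22.6 CPM with triptolide alone in activated cells, 3.76 to 5.93, 1.55 to 7.43 and 5.50 to 10.6 CPM in the same order with DRB, and 1.60 to 3.08, 1.51 to 3.58 and 4.61 to 8.88 CPM with triptolide in resting cells. With harringtonine in activated cells and with cycloheximide on DRB the ranges overlap those without. Neither Adgre1 nor Cd68 was called in these comparisons by edgeR, and the part of these transcripts was not tested.

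In activated cells with triptolide, Fbxl5 was at 69.5, 82.1 and 94.1 CPM with cycloheximide added and 38.6, 45.2 and 32.3 CPM with triptolide alone. The groups did not overlap (log2 change 1.11 ± 0.23, adjusted p = 0.000117 by edgeR). Fth1 was at 306, 244 and 156 CPM with cycloheximide added and 582, 663 and 324 CPM without (log2 change -1.15 ± 0.30, adjusted p = 0.00199), and Ftl1 had a log2 change of -1.05 ± 0.34, adjusted p = 0.0137, by edgeR. Of all genes 27.3% were called, and 3 of 8 members. Tfrc was at 628, 409 and 689 CPM with cycloheximide added and 900.1, 543 and 903 CPM without, with overlapping groups (log2 change -0.45 ± 0.23, adjusted p = 0.133 by edgeR). Fth1 was not called without replicate 3 (log2 change -0.92). Ftl1 was not called with library size alone or without replicate 3 or 4 (log2 change -1.04 to -0.86). Fbxl5 was not called without replicate 4 (log2 change 0.87). With the replicate number as a block Tfrc (-0.44, adjusted p = 0.0346) was called too.

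Harringtonine, which stops translation at initiation, gave Fbxl5 at 97.0, 131 and 76.8 CPM when added to triptolide (log2 change 1.42 ± 0.23, adjusted p = 1.09e-06 by edgeR). Fth1 was at 282, 269 and 176 CPM (log2 change -1.10 ± 0.30, adjusted p = 0.00309) and Ftl1 at 169, 257 and 266 CPM (log2 change -1.04 ± 0.34, adjusted p = 0.0164 by edgeR). Tfrc was at 526, 548 and 493 CPM, overlapping triptolide alone (log2 change -0.59 ± 0.23, adjusted p = 0.0483 by edgeR). Of all genes 24.7% were called, and 4 of 8 members. Tfrc was not called with RLE factors, library size alone, no filter on low counts, without the 2 shallowest libraries, DESeq2, a fit of only the compared libraries or without replicate 2 or 4 (log2 change -0.58 to -0.41). Fth1 was not called without replicate 3 (log2 change -0.93). Ftl1 was not called with library size alone or without replicate 3 or 4 (log2 change -1.07 to -0.88).

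With DRB in place of triptolide, Fbxl5 was again higher and Ftl1 again lower. Cycloheximide added to DRB gave log2 changes of 0.74 ± 0.23, adjusted p = 0.0171 for Fbxl5, -1.01 ± 0.30, adjusted p = 0.0113 for Fth1 and -0.93 ± 0.34, adjusted p = 0.0432 for Ftl1 by edgeR, with 17.6% of genes called. Harringtonine added to DRB gave 1.00 ± 0.22, adjusted p = 0.000451 for Fbxl5 and -1.04 ± 0.34, adjusted p = 0.0194 for Ftl1 by edgeR, with 18.7% of genes called. Fth1 was at 338, 286 and 164 CPM with harringtonine added to DRB and 524, 407 and 338 CPM with DRB alone, with the nearest pair of libraries at 338.2 and 338.5 CPM, and was not called (log2 change -0.69 ± 0.29, adjusted p = 0.0897). With cycloheximide, Fth1 was not called with library size alone, a fit of only the compared libraries or without replicate 2, 3 or 4 (log2 change -1.01 to -0.72). With cycloheximide, Ftl1 was not called with RLE factors, library size alone, counts over coding sequence, without the 2 shallowest libraries, DESeq2, a fit of only the compared libraries or without replicate 3 or 4 (log2 change -1.10 to -0.63). With cycloheximide, Fbxl5 was not called with a fit of only the compared libraries or without replicate 2 or 4 (log2 change 0.57 to 0.78). With harringtonine, Ftl1 was not called with library size alone, a fit of only the compared libraries or without replicate 3 or 4 (log2 change -1.02 to -0.82). With harringtonine, Fbxl5 was not called with a fit of only the compared libraries or without replicate 4 (log2 change 0.79 to 1.03). With the replicate block Tfrc (-0.57, adjusted p = 0.00962) and Ireb2 (-0.71, adjusted p = 0.023) were called for cycloheximide, and Tfrc (-0.56, adjusted p = 0.00959) and Fth1 (-0.72, adjusted p = 0.000902) for harringtonine.

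In resting cells the ferritins had the same sign of change and Fbxl5 was not called with TMM factors. Fth1 was at 194, 292 and 251 CPM with cycloheximide added to triptolide and 429, 598 and 532 CPM with triptolide alone (log2 change -1.08 ± 0.30, adjusted p = 0.00281 by edgeR). Ftl1 had a log2 change of -1.36 ± 0.34, adjusted p = 0.00114 and Ireb2 one of -1.08 ± 0.40, adjusted p = 0.0272 by edgeR, with 35.2% of genes called. With harringtonine added, Fth1 had -0.81 ± 0.29, adjusted p = 0.0348, Ftl1 -1.13 ± 0.34, adjusted p = 0.00971 and Aco1 0.68 ± 0.24, adjusted p = 0.0281 by edgeR, with 24.0% of genes called. Fbxl5 had a log2 change of 0.44 ± 0.21, adjusted p = 0.101 with cycloheximide and 0.53 ± 0.21, adjusted p = 0.0606 with harringtonine.

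Several of these calls in resting cells rest on single replicates or on the scaling. With cycloheximide, Fth1 was not called without replicate 3 (log2 change -1.09). With cycloheximide, Ftl1 was not called without replicate 4 (log2 change -1.28). With cycloheximide, Ireb2 was not called with library size alone, counts over coding sequence or without replicate 3 or 4 (log2 change -1.23 to -0.74). With harringtonine, Fth1 was not called with library size alone, counts over coding sequence or without replicate 2, 3 or 4 (log2 change -0.86 to -0.59). With harringtonine, Ftl1 was not called without replicate 3 or 4 (log2 change -1.05 to -1.04). With harringtonine, Aco1 was not called with no filter on low counts, counts over coding sequence or without replicate 2, 3 or 4 (log2 change 0.51 to 0.81). In the fit with the replicate block Aco1 (0.56, adjusted p = 0.0376) and Fbxl5 (0.44, adjusted p = 0.0231) were also called for cycloheximide, and Ireb2 (-0.62, adjusted p = 0.0276) and Fbxl5 (0.53, adjusted p = 0.00771) for harringtonine.

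Per ERCC count, the log2 change of Fbxl5 on adding cycloheximide was 1.74 ± 0.27, adjusted p = 1.85e-07 with triptolide in activated cells, 1.49 ± 0.26, adjusted p = 5.35e-06 with DRB and 1.32 ± 0.25, adjusted p = 7.66e-06 in resting cells by edgeR. On adding harringtonine it was 1.82 ± 0.27, adjusted p = 1.05e-07, 1.67 ± 0.26, adjusted p = 2.51e-07 and 1.08 ± 0.25, adjusted p = 0.00042 in the same order. The share of all genes called per ERCC count was 34.9%, 29.7% and 46.2% for cycloheximide and 22.7%, 25.8% and 26.9% for harringtonine. Tfrc was not called in any of the 6, with log2 changes between -0.14 and 0.45. Ncoa4 rose with cycloheximide in activated (1.04 ± 0.32, adjusted p = 0.00648) and resting cells (1.38 ± 0.34, adjusted p = 0.000413) under triptolide by edgeR, and Aco1 likewise (0.93 ± 0.34, adjusted p = 0.0255, and 1.44 ± 0.34, adjusted p = 0.000315).

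**Figure D4:**
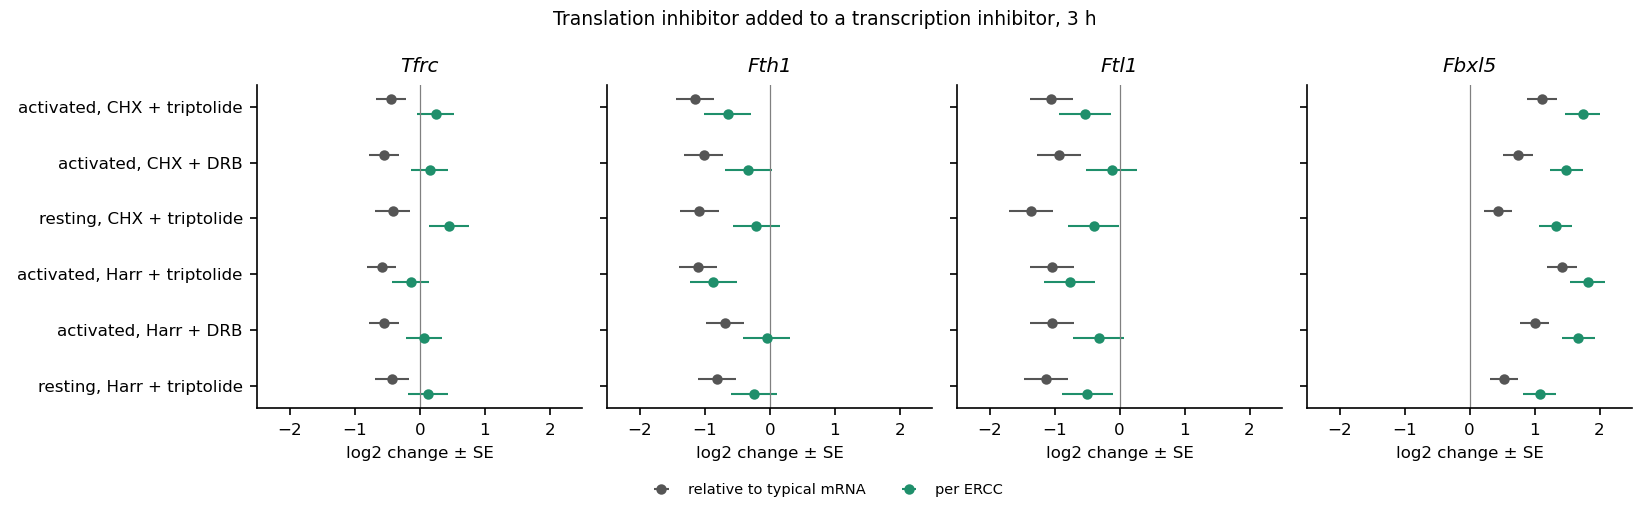
Log2 change ± SE (x axis) of Tfrc, Fth1, Ftl1 and Fbxl5, 1 panel each, in the 6 comparisons that add cycloheximide (CHX) or harringtonine (Harr) to a transcription inhibitor at 3 h (y axis), with TMM factors and per ERCC count. Fbxl5 lies above 0 throughout, at 1.08 to 1.82 per ERCC count, and Fth1 and Ftl1 lie below 0 on both scales.

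The effect of cycloheximide under triptolide did not pass the test of a difference between the states for any member. By edgeR 0 of 8 were called and 2 had an unadjusted p under 0.05, DESeq2 called 0, and 0.289% of all genes were called. Activated minus resting, the difference for Fbxl5 was 0.67 ± 0.31, adjusted p = 0.507 and that for Ireb2 0.45 ± 0.57, adjusted p = 0.919.

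Translation inhibitors alone, with transcription running, lowered Tfrc and Aco1 relative to typical mRNA in both states at 3 h. In activated cells Tfrc was at 392, 468 and 307 CPM with cycloheximide, 401, 386 and 322 CPM with harringtonine and 1113, 867 and 886 CPM untreated at 3 h. Neither treated group overlapped the untreated one. The log2 change was -1.30 ± 0.23, adjusted p = 4.71e-06 with cycloheximide and -1.37 ± 0.23, adjusted p = 1.51e-06 with harringtonine by edgeR. For Aco1 it was -1.29 ± 0.21, adjusted p = 1.05e-06 and -1.11 ± 0.21, adjusted p = 1.6e-05. Of all genes 30.0% were called with cycloheximide and 31.0% with harringtonine, and 2 of 8 members with each. Per ERCC count the log2 changes of Tfrc were -0.83 ± 0.28 and -0.99 ± 0.28, and over all genes 2708 higher and 301 lower and 2195 higher and 390 lower were called, against 1616 higher and 1609 lower and 1665 higher and 1669 lower with TMM factors. In the fit with the replicate block Slc11a2 (-0.56, adjusted p = 0.0389) and Ftl1 (-0.54, adjusted p = 0.00707) were also called with cycloheximide, and Fth1 (-0.65, adjusted p = 0.00294) and Ftl1 (-0.55, adjusted p = 0.00569) with harringtonine. With harringtonine, Aco1 was not called with ERCC scaling (log2 change -0.74).

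In resting cells Tfrc was at 31.9, 40.9 and 52.8 CPM with cycloheximide, 48.4, 48.2 and 57.1 CPM with harringtonine and 61.2, 83.3 and 109 CPM untreated at 3 h. The log2 changes with TMM factors were -1.01 ± 0.24, adjusted p = 0.000803 and -0.73 ± 0.24, adjusted p = 0.0204 by edgeR, and with ERCC scaling, where the median gene was 1.02 and 1.00 higher, they turned to 0.03 ± 0.29 and 0.34 ± 0.29. Aco1 (-0.60 ± 0.21, adjusted p = 0.0225, and -0.67 ± 0.21, adjusted p = 0.0147 by edgeR) and Ireb2 with cycloheximide (-1.04 ± 0.37, adjusted p = 0.0275) were the other called members with TMM factors, and their signs turned too, Aco1 to 0.44 ± 0.31 and 0.37 ± 0.31 and Ireb2 to 0.02 ± 0.41. Of all genes 26.3% were called with cycloheximide and 20.5% with harringtonine. Over all genes cycloheximide gave 1483 higher and 1341 lower with TMM factors and 6560 higher and 33 lower per ERCC count, and harringtonine 1057 higher and 1141 lower and 6453 higher and 21 lower. With cycloheximide, Aco1 was not called with RLE factors, library size alone, no filter on low counts, DESeq2 or without replicate 2, 3 or 4 (log2 change -0.66 to -0.44). With cycloheximide, Ireb2 was not called with RLE factors, library size alone, counts over coding sequence, DESeq2 or without replicate 3 or 4 (log2 change -0.95 to -0.87). With harringtonine, Tfrc was not called without replicate 3 or 4 (log2 change -0.64 to -0.55). With harringtonine, Aco1 was not called with library size alone, no filter on low counts, DESeq2 or without replicate 2, 3 or 4 (log2 change -0.71 to -0.54). With the replicate block Fbxl5 (-0.37, adjusted p = 0.0363) was also called with cycloheximide and Ftl1 (-0.42, adjusted p = 0.0478) with harringtonine.

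The untreated libraries at 3 h serve as the reference for both inhibitors, so the values for cycloheximide and harringtonine share them. Likewise the libraries with triptolide or DRB alone at 3 h enter the comparisons over time and those with an added translation inhibitor.

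Reads in introns stand for unspliced RNA. Tfrc introns were higher in activated than in resting cells at 0 h without inhibitor, with 409, 7 and 89 intron reads, or 2157, 962 and 1334 per 1000000 ERCC counts, in activated cells and 35, 40 and 56 reads, or 356, 311 and 484 per 1000000 ERCC counts, in resting cells. The groups did not overlap per ERCC count. The log2 change was 1.54 ± 0.31, adjusted p = 0.000142 by edgeR with TMM factors of intron counts, against 2.40 ± 0.25 over exons. It was the one member called, where 13.5% of 10750 genes tested over introns were. Tfrc was not called without replicate 2 (log2 change 1.41).

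In the libraries taken at 0 h with an inhibitor, Tfrc introns in activated cells were at 289, 181 and 194 per 1000000 ERCC counts with triptolide and 243, 335 and 228 with DRB, all below the 3 untreated libraries. In resting cells they were at 364, 377 and 153 with triptolide and 356, 311 and 484 untreated, which overlap. At 3 h they were at 15.5, 87.5 and 26.7 with triptolide and 20.2, 55.2 and 16.8 with DRB in activated cells and 24.8, 20.6 and 19.4 with triptolide in resting cells. Untreated activated cells at 3 h had 2669, 1359 and 1987 and untreated resting cells 368, 303 and 668. These are levels, with no test between the treated and untreated 0 h libraries.

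**Figure D5:**
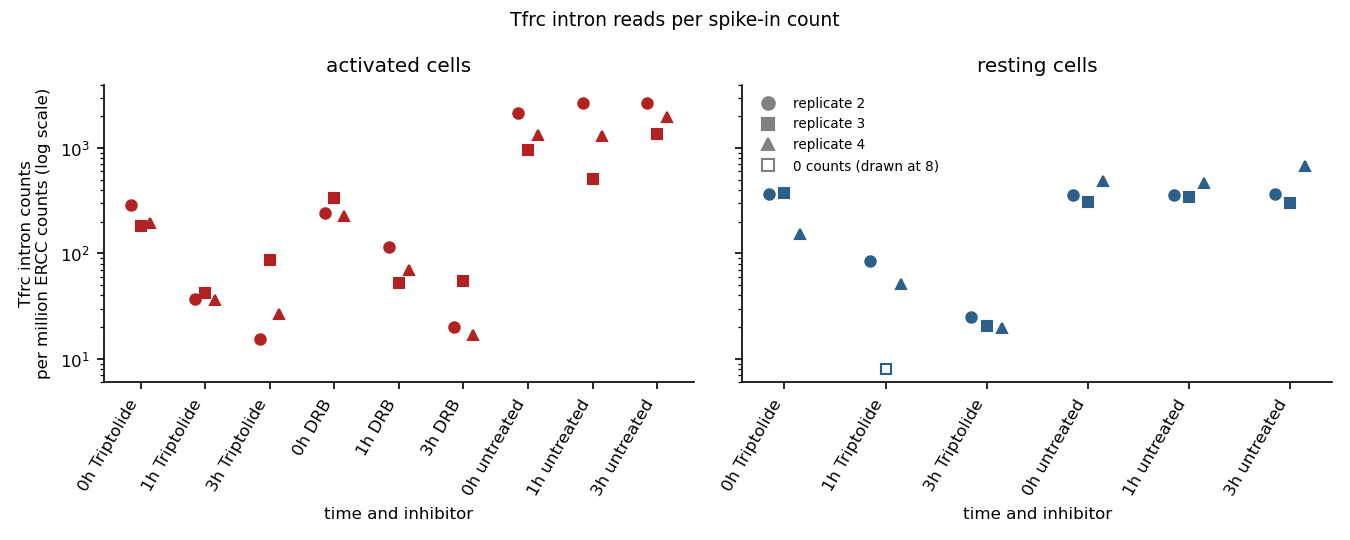
Tfrc reads in introns per 1000000 ERCC counts (log axis) in each library, for activated groups on the left and resting groups on the right. Libraries at 0 are drawn at 8. The 3 untreated activated libraries at 0 h lie at 962 to 2157, above the 6 activated libraries with triptolide or DRB at 0 h, which lie at 181 to 335.

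From 0 to 3 h of inhibitor, intron counts were compared relative to the typical intron. In activated cells with triptolide, Fbxl5 (-1.24 ± 0.27, adjusted p = 0.000141), Ireb2 (-1.03 ± 0.33, adjusted p = 0.00825) and Aco1 (-1.33 ± 0.49, adjusted p = 0.0241) were lower at 3 h by edgeR, with 37.4% of genes called. Aco1 was not called with RLE factors, DESeq2 or without replicate 2 or 3 (log2 change -1.25 to -0.94). Ireb2 was not called without replicate 2 or 4 (log2 change -0.78 to -0.60). Fbxl5 was not called without replicate 4 (log2 change -0.74). With DRB, Fbxl5 was lower (-1.17 ± 0.27, adjusted p = 0.000207), and Fth1 (1.87 ± 0.66, adjusted p = 0.0178) and Ncoa4 (2.17 ± 0.49, adjusted p = 0.000229) were higher by edgeR, with 39.5% of genes called. Fth1 was not called with library size alone or without replicate 2 or 4 (log2 change 1.18 to 2.25). Ncoa4 was not called without replicate 2 (log2 change 1.63). In the fit with the replicate block Ireb2 (-0.62, adjusted p = 0.022) was called too. With ERCC scaling Fth1 introns turned to -0.29 and Ncoa4 introns stood at 0.05, neither called. Fth1 has few intron reads, 13, 3 and 4 at 3 h and 8, 2 and 6 at 0 h of DRB.

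In resting cells with triptolide, intron counts of Fth1 (-2.29 ± 0.92, adjusted p = 0.0361), Ncoa4 (-1.67 ± 0.64, adjusted p = 0.027) and Ireb2 (-0.82 ± 0.29, adjusted p = 0.0185) were lower at 3 h by edgeR, and those of Slc11a2 were higher (1.03 ± 0.30, adjusted p = 0.00359), with 45.7% of genes called. The direction of Slc11a2 turned to -1.82 with ERCC scaling and -0.25 with library size alone, and it was not called with RLE factors (0.51) or DESeq2 (0.49). Fth1 had 1, 0 and 1 intron reads at 3 h and 5, 74 and 5 at 0 h, and Ncoa4 had 1, 0 and 3 and 15, 69 and 13. Both changes rest on replicate 3 at 0 h: without replicate 3 the log2 change was 0.18 for Fth1 and -0.35 for Ncoa4. Ireb2 was not called without replicate 2 or 4 (log2 change -0.88 to -0.68).

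The part of Tfrc reads that fell in its 3′ UTR, where the 4 matches to the pattern lie, was computed for every group. Group means of the 3′ UTR share of reads in 3′ UTR plus coding sequence ran between 45.0 and 51.8% in the activated groups (median 48.4%) and between 36.3 and 52.0% in the resting groups (median 45.3%). The ends of the resting range did not overlap: libraries were at 28.3 to 41.5% with triptolide and harringtonine and 49.4 to 56.5% with triptolide alone at 3 h. These 2 groups were singled out for their values, with no test, and resting libraries have fewer Tfrc reads, so their shares are less precise.

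Of 48 tested genes on 4 further lists of iron biology, 16 were higher and 8 lower in activated than in resting cells at 3 h untreated, with a median log2 change of 0.24 against -0.04 over all genes. As 53.8% of all genes were called, the lists do not stand apart by that count. Per ERCC count 26 were higher and 2 lower (median 0.92); no cluster assembly, uptake or IRE gene was called lower there, and of the haem genes 3 rose and 2 fell. With TMM factors, per list, 8 of 22 tested iron-sulfur cluster assembly genes rose and 2 fell, among them Fdx1l (a ferredoxin, 2.60 ± 0.31, adjusted p = 2.9e-11), Nfs1 (the cysteine desulfurase, 1.37 ± 0.21, adjusted p = 4.23e-08) and Nubp1 (1.27 ± 0.21, adjusted p = 3.49e-07) by edgeR. Mms19 had -0.29 ± 0.16, adjusted p = 0.116. Of 13 tested uptake, export and trafficking genes 5 rose and 1 fell, led by Slc39a14 (a transporter of iron not bound to transferrin, 2.04 ± 0.29, adjusted p = 5.45e-09) and Hmox1 (haem oxygenase 1, 2.83 ± 0.63, adjusted p = 8.97e-05), while Pcbp2 (0.25 ± 0.28, adjusted p = 0.474) and Exoc6 (-0.02 ± 0.20, adjusted p = 0.939) were not called. Of 8 haem synthesis genes 1 rose and 4 fell, including Fech (ferrochelatase, -2.24 ± 0.28, adjusted p = 5.85e-11), Urod (-1.72 ± 0.31, adjusted p = 2.47e-06) and Ppox (-0.82 ± 0.25, adjusted p = 0.00483). Among 5 tested messages with reported IREs, Epas1 (1.39 ± 0.42, adjusted p = 0.00376) rose and Pfn2 (-1.36 ± 0.51, adjusted p = 0.0205) fell. Named after their values were seen, further called genes were Hscb (-1.53 ± 0.38) and Ciao1 (-0.90 ± 0.21) in cluster assembly, which fell, Flvcr1 (0.53 ± 0.23), Pcbp1 (1.73 ± 0.42) and Slc25a37 (1.55 ± 0.36), which rose, and Mcoln1 (-0.91 ± 0.29), which fell, in uptake and trafficking, and Cpox (-0.83 ± 0.25), which fell, in haem synthesis.

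After 3 h of triptolide in activated cells, 8 of the 48 were higher and 14 lower relative to typical mRNA (median -0.14, against -0.03 over all genes), where 47.6% of all genes were called. Cdc42bpa, on the list of reported IRE messages, had a log2 change of 1.26 ± 0.35, adjusted p = 0.00195. Of the 22 cluster assembly genes 3 rose and 9 fell, led by Iba57 (-2.25 ± 0.40, adjusted p = 2.53e-06) and Ciao1 (-1.36 ± 0.27, adjusted p = 2.19e-05), with Mms19 (-0.50 ± 0.16, adjusted p = 0.00741) and Nubp1 (-0.80 ± 0.22, adjusted p = 0.00217) also lower. Of the 13 uptake genes 3 rose and 3 fell. Snx3 (-1.94 ± 0.31, adjusted p = 2.61e-07) and Hmox2 (-1.44 ± 0.25, adjusted p = 1.53e-06) fell, and Pcbp2 (0.90 ± 0.29, adjusted p = 0.00699) and Exoc6 (0.53 ± 0.21, adjusted p = 0.0316) rose. Of the 8 haem genes 2 fell, Alas1 (-2.16 ± 0.42, adjusted p = 1.4e-05) and Urod (-1.28 ± 0.38, adjusted p = 0.00361). Named after their values were seen, Iscu (0.75 ± 0.29) and Nfu1 (1.19 ± 0.28) were among the cluster assembly genes that rose, Slc39a8 (1.0972 ± 0.40) was the other uptake gene that rose and Pcbp1 (-2.63 ± 0.52) the other that fell. Per ERCC count 0 of the 48 rose and 42 fell, so the higher calls turned on that scale, among them Iscu to -0.87 ± 0.35, Nfu1 to -0.33 ± 0.39, Slc39a8 to -0.49 ± 0.45, Cdc42bpa to -0.44 ± 0.40, Pcbp2 to -0.59 ± 0.38 and Exoc6 to -1.13 ± 0.31.

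With cycloheximide added to triptolide in activated cells, 9 of the 48 rose and 1 fell (median -0.0027, against -0.08 over all genes), where 27.3% of all genes were called. Per ERCC count 19 rose and 0 fell. Cluster assembly held 7 of the rises, including Mms19 (1.23 ± 0.16, adjusted p = 3.95e-09), Narfl (1.78 ± 0.34, adjusted p = 3.13e-05) and Nubp1 (0.96 ± 0.22, adjusted p = 0.000543), and the others were Snx3 (1.34 ± 0.31, adjusted p = 0.000542) and Urod (1.18 ± 0.38, adjusted p = 0.0134). Pcbp2 fell (-0.88 ± 0.29, adjusted p = 0.0153) and was not called per ERCC count (-0.39 ± 0.38). None of the 5 IRE messages was called by edgeR.

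Regnase-1 (Zc3h12a) and the Roquins (Rc3h1, Rc3h2) are RNA-binding proteins known to act on stem-loops in the Tfrc 3′ UTR. Zc3h12a was higher in activated than in resting cells at 3 h untreated (1.30 ± 0.46, adjusted p = 0.0128 by edgeR), and higher at 3 h than at 0 h of triptolide in resting cells (2.30 ± 0.45, adjusted p = 1.24e-05; 0.59 ± 0.52 per ERCC count, not called) but not called in activated cells (0.34 ± 0.43, adjusted p = 0.535). The difference in that change, activated minus resting, was -1.96 ± 0.62, adjusted p = 0.0408 with TMM factors and -1.82 ± 0.74, adjusted p = 0.246 per ERCC count by edgeR. With cycloheximide alone it rose in activated cells (1.99 ± 0.43, adjusted p = 0.000146) and was not called in resting cells (-0.01 ± 0.46, adjusted p = 1 by edgeR), and Tfrc fell in both with TMM factors, turning to 0.03 ± 0.29 per ERCC count in resting cells. Rc3h1 had 1.03 ± 0.24, adjusted p = 0.000304 and Rc3h2 0.77 ± 0.30, adjusted p = 0.0273 over 3 h of triptolide in activated cells, and -1.06 ± 0.24, adjusted p = 0.000471 and -0.96 ± 0.30, adjusted p = 0.0112 with cycloheximide added. With ERCC scaling the signs over triptolide turned, to -0.56 ± 0.34 for Rc3h1 and -0.93 ± 0.34 for Rc3h2, and neither was called with cycloheximide added (-0.48 ± 0.34 and -0.27 ± 0.34). The part of these genes in the Tfrc values was not tested.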

How the data were processed

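RNA sequencing of total RNA with ERCC spike-ins was made in 105 libraries, 3 for each of 35 groups. The authors deposited HTSeq read counts per gene over exons, coding sequence, UTRs and introns alone, whole numbers with no scaling, in 1 table of 22322 genes and 92 ERCC RNAs; per the submitters' processing notes, TopHat2 2.0.13, Bowtie 1.1.1.0 and HTSeq were used with mm10. Strand setting, annotation and library type are not given in the sources used here. The rows that name no gene or ERCC RNA held 75.84 to 97.25% of a library's counts outside ERCC RNAs, and they enter no library size. Most of these were counts of alignments that were not unique, at 50.52 to 91.48% of the same total. Columns were matched to samples by the names in the labels, and no value column was left unmatched. No pair of the 105 within-group replicate pairs agreed within counting noise (lowest chi-square per degree of freedom 1.201, or 3.132 without the shallowest library).

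From these counts, genes were filtered with filterByExpr (10741 kept over exons, 10750 over introns), and all 105 libraries were fitted as 35 group means with edgeR 4.0.16 (R 4.3.3; TMM factors, robust quasi-likelihood F test), with Benjamini-Hochberg adjustment over all genes tested and a call at an adjusted p under 0.05. The same fit with summed ERCC counts as scaling gave the per ERCC values; percents of 0 h are ratios of group means of counts per 1000000 ERCC counts. The code was tested on simulated counts. In 14 of 17 comparisons within a state, deviations of same-numbered libraries from their group means correlated over 0.1 in every pair, and in 0 of 2 between states; the pairing is from these data and the labels' numbers. Alternatives were RLE factors, library size alone, ERCC scaling, a replicate block, each replicate left out, no filter, counts over coding sequence, leaving out the 2 shallowest libraries, only the compared libraries, and DESeq2 1.42.0. Messages named outside the 8 are, per list, the 2 with the smallest p and the 2 with the highest mean CPM, and the 5 genes most like Tfrc; others, including markers of other cells, were named after their values were seen; values of some list genes are not reported here. The IRE search used Python 3.11.15 and figures matplotlib 3.10.9. The members, lists and the 2 shallow libraries were chosen with earlier results of these data known. Counting error bounds low values, and PCR copies were not removed by molecular identifiers as far as the sources used here say.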

Additional observations from a re-analysis of the deposited data

Results flagged for a closer look

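The change of Tfrc over 3 h of triptolide differed between activated and resting cells. The difference in log2 change, activated minus resting, was 1.76 ± 0.34 (adjusted p = 0.000439, edgeR), from 1.05 ± 0.23 in activated cells and -0.72 ± 0.25 in resting cells. It was marked because the difference itself passed its test, and it was of the same sign per ERCC count (1.83 ± 0.42). Zc3h12a had a difference of -1.96 ± 0.62 in the same comparison with TMM factors, and its difference was not called per ERCC count. The part of Zc3h12a in the Tfrc value was not tested.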

How the results depend on the processing

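No called message changed sign under RLE factors, DESeq2, the replicate block, no filter on low counts, counts over coding sequence, leaving out the 2 shallowest libraries and fitting only the compared libraries. With ERCC scaling, which by construction sets counts against spike-ins and not against the other mRNAs, the log2 change turned in activated triptolide at 3 h (Tfrc -0.62, Fth1 -0.10, Ftl1 -0.17, Ncoa4 -1.75), activated DRB at 1 h (Tfrc -0.073), activated DRB at 3 h (Tfrc -0.38, Fth1 -0.27, Ftl1 -0.41, Ncoa4 -1.22), resting triptolide at 3 h (Slc11a2 -1.33, Fth1 -0.17, Ftl1 -0.043), cycloheximide alone in resting cells (Tfrc 0.032, Aco1 0.44, Ireb2 0.024, Fbxl5 0.72), harringtonine alone in resting cells (Tfrc 0.34, Slc11a2 0.83, Aco1 0.37, Fbxl5 0.78, Ncoa4 0.95), introns, activated triptolide at 3 h (Ncoa4 -2.35), introns, activated DRB at 3 h (Fth1 -0.29) and introns, resting triptolide at 3 h (Slc11a2 -1.82). Intron counts of Slc11a2 in resting triptolide turned to -0.25 with library size alone, and those of Fth1 ran between -3.34 and 0.18 with 1 replicate left out, the second without replicate 3. The cause of these was not tested. With RLE factors, the number of the 8 members called was 1 (reported 2) for activated against resting at 0 h, 2 (reported 1) for activated against resting at 3 h, 1 (reported 2) for activated DRB at 1 h, 5 (reported 3) for cycloheximide on triptolide in resting cells and 1 (reported 3) for cycloheximide alone in resting cells. With library size alone, the number of the 8 members called was 1 (reported 2) for activated DRB at 1 h, 1 (reported 3) for cycloheximide on DRB, 5 (reported 3) for cycloheximide on triptolide in resting cells, 2 (reported 4) for harringtonine on triptolide in activated cells, 1 (reported 2) for harringtonine on DRB, 1 (reported 3) for cycloheximide alone in resting cells, 1 (reported 2) for harringtonine alone in resting cells, 6 (reported 3) for introns, activated DRB at 3 h and 7 (reported 4) for introns, resting triptolide at 3 h. With ERCC scaling, the number of the 8 members called was 1 (reported 2) for activated against resting at 0 h, 3 (reported 1) for activated against resting at 3 h, 5 (reported 1) for activated triptolide at 1 h, 1 (reported 3) for cycloheximide on DRB, 1 (reported 4) for harringtonine on triptolide in activated cells, 1 (reported 2) for harringtonine on DRB, 1 (reported 2) for harringtonine alone in activated cells, 8 (reported 3) for introns, activated triptolide at 3 h, 6 (reported 3) for introns, activated DRB at 3 h and 8 (reported 4) for introns, resting triptolide at 3 h. With the replicate block, the number of the 8 members called was 1 (reported 0) for resting untreated over 3 h, 4 (reported 1) for activated triptolide at 1 h, 4 (reported 2) for activated DRB at 1 h, 3 (reported 1) for the triptolide difference between states, 5 (reported 3) for cycloheximide on DRB, 5 (reported 3) for cycloheximide on triptolide in resting cells, 4 (reported 2) for harringtonine on DRB, 5 (reported 3) for harringtonine on triptolide in resting cells, 4 (reported 2) for cycloheximide alone in activated cells and 4 (reported 2) for harringtonine alone in activated cells. With no filter on low counts, the number of the 8 members called was 1 (reported 2) for activated against resting at 0 h, 2 (reported 1) for activated triptolide at 1 h, 1 (reported 2) for activated DRB at 1 h and 1 (reported 2) for harringtonine alone in resting cells. With counts over coding sequence, the number of the 8 members called was 1 (reported 2) for activated DRB at 1 h and 1 (reported 3) for harringtonine on triptolide in resting cells. With DESeq2, the number of the 8 members called was 2 (reported 1) for activated against resting at 3 h, 1 (reported 2) for activated DRB at 1 h, 5 (reported 3) for cycloheximide on triptolide in resting cells, 1 (reported 3) for cycloheximide alone in resting cells and 1 (reported 2) for harringtonine alone in resting cells. With only the compared libraries fitted, the number of the 8 members called was 0 (reported 1) for activated triptolide at 1 h, 0 (reported 2) for activated DRB at 1 h, 0 (reported 3) for cycloheximide on DRB and 0 (reported 2) for harringtonine on DRB. Leaving out replicate 2, 3 or 4 in turn, the number of members called ran between 1 and 2 for activated against resting at 0 h, 1 and 2 for activated against resting at 3 h, 1 and 2 for activated untreated over 3 h, 0 and 1 for resting untreated over 3 h, 0 and 1 for activated triptolide at 1 h, 0 and 0 for activated DRB at 1 h, 2 and 5 for activated DRB at 3 h, 2 and 4 for resting triptolide at 3 h, 1 and 3 for cycloheximide on triptolide in activated cells, 0 and 1 for cycloheximide on DRB, 1 and 3 for cycloheximide on triptolide in resting cells, 2 and 3 for harringtonine on triptolide in activated cells, 0 and 2 for harringtonine on DRB, 0 and 1 for harringtonine on triptolide in resting cells, 1 and 2 for cycloheximide alone in resting cells, 0 and 1 for harringtonine alone in resting cells, 0 and 1 for introns, activated against resting at 0 h, 1 and 4 for introns, activated DRB at 3 h and 2 and 2 for introns, resting triptolide at 3 h.

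Of all genes, the number called ranged over the alternatives between 1107 and 3240 (2875 reported) for activated against resting at 0 h, 4148 and 6123 (5778 reported) for activated against resting at 3 h, 217 and 2728 (1462 reported) for activated untreated over 3 h, 114 and 1988 (686 reported) for resting untreated over 3 h, 1110 and 4883 (2602 reported) for activated triptolide at 1 h, 3463 and 8550 (5118 reported) for activated triptolide at 3 h, 325 and 4010 (1711 reported) for activated DRB at 1 h, 2347 and 8550 (4275 reported) for activated DRB at 3 h, 4585 and 8315 (6104 reported) for resting triptolide at 3 h, 146 and 1762 (695 reported) for the triptolide difference between states, 1261 and 4518 (2936 reported) for cycloheximide on triptolide in activated cells, 459 and 3443 (1893 reported) for cycloheximide on DRB, 1737 and 5002 (3778 reported) for cycloheximide on triptolide in resting cells, 0 and 314 (31 reported) for the cycloheximide difference between states, 1318 and 4017 (2650 reported) for harringtonine on triptolide in activated cells, 826 and 3261 (2009 reported) for harringtonine on DRB, 1060 and 4056 (2580 reported) for harringtonine on triptolide in resting cells, 1566 and 4562 (3225 reported) for cycloheximide alone in activated cells, 884 and 6593 (2824 reported) for cycloheximide alone in resting cells, 1577 and 4754 (3334 reported) for harringtonine alone in activated cells, 510 and 6474 (2198 reported) for harringtonine alone in resting cells, 410 and 2130 (1453 reported) for introns, activated against resting at 0 h, 2574 and 7627 (4025 reported) for introns, activated triptolide at 3 h, 2683 and 6629 (4250 reported) for introns, activated DRB at 3 h and 3371 and 8040 (4911 reported) for introns, resting triptolide at 3 h.

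The replicate number as a block added 26 calls of a member over all comparisons and ended none. Where not every pair of same-numbered libraries had deviations correlated over 0.1 (resting untreated over 3 h, lowest -0.18 and mean -0.099; activated triptolide over 3 h, lowest 0.085 and mean 0.178; harringtonine on triptolide in activated cells, lowest 0.074 and mean 0.216), the block gave Fth1 (-0.55, adjusted p = 0.0253) for resting untreated and Ireb2 (-0.91, adjusted p = 0.00106) for activated triptolide at 3 h. Between activated and resting cells the lowest correlations were 0.021 at 0 h and -0.206 at 3 h, and the block changed no call there. The other calls the block added stand beside their comparisons.

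Depth limits Slc11a2, Ncoa4 and Aco1 most, with medians of 30.0, 50.0 and 56.0 exon reads per library, and the intron counts of Fth1. Intervals of the per ERCC shares were not computed, and with 3 libraries against 3 the exact test cannot go below p = 0.1.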

Other observations

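Other iron genes were called in resting cells under triptolide about as often as all genes. Of 48 tested, 12 were higher and 14 lower at 3 h than at 0 h relative to typical mRNA by edgeR (median log2 change -0.24, against -0.06 over all genes, of which 56.8% were called), and per ERCC count 0 rose and 43 fell. Of the 8 haem synthesis genes, Ppox (protoporphyrinogen oxidase) had a log2 change of 1.35 ± 0.24, adjusted p = 2.57e-06, while Alas1 (the enzyme of the first step, -2.55 ± 0.48, adjusted p = 4.46e-06) and Urod (-1.69 ± 0.39, adjusted p = 0.000141) fell. Per ERCC count Ppox was at -0.39 ± 0.30. Of the 22 cluster assembly genes 5 rose and 8 fell, with Ciao1 (-2.19 ± 0.26, adjusted p = 7.34e-11) and Iba57 (-2.92 ± 0.47, adjusted p = 2.07e-07) lower and Mms19 higher (0.54 ± 0.16, adjusted p = 0.00246, turning to -1.11 ± 0.29 per ERCC count). Snx3 (-2.91 ± 0.37, adjusted p = 4.72e-10), a sorting nexin needed for recycling of transferrin receptor, and Hmox2 (-1.96 ± 0.26, adjusted p = 2.03e-09) fell.

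With cycloheximide added to triptolide in resting cells, 15 of the 48 rose and 3 fell by edgeR (median 0.24, against -0.05 over all genes, of which 35.2% were called), and per ERCC count 27 rose and 0 fell. Nubp2 (2.08 ± 0.29, adjusted p = 3.27e-08), Ciao1 (1.89 ± 0.27, adjusted p = 3.98e-08), Snx3 (2.14 ± 0.39, adjusted p = 1.18e-05), Urod (1.96 ± 0.39, adjusted p = 4.39e-05) and Alas1 (1.49 ± 0.53, adjusted p = 0.0218) rose, and Pcbp2 (-1.21 ± 0.29, adjusted p = 0.000704), Cdc42bpa (-1.05 ± 0.34, adjusted p = 0.0114) and Ppox (-0.59 ± 0.24, adjusted p = 0.0486) fell relative to typical mRNA. Per ERCC count those 3 were not called (Pcbp2 -0.33 ± 0.38, Cdc42bpa -0.12 ± 0.39, and Ppox turned to 0.36 ± 0.30). Both comparisons share the libraries with triptolide alone at 3 h.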
